A study of Mus musculus with 2 samples.

Results

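The 41 genes described here serve the DNA damage response: they sense breaks and other lesions, halt the cell cycle or carry out repair. They were taken by symbol and looked up in both gene tables by the Ensembl identifier without its version, through the mouse GENCODE annotation M21 of GRCm38. All 41 were found, among 43346 Ensembl gene rows, of which 21474 were protein-coding in that annotation. The samples were 2 total RNA libraries, replicate 1 and replicate 2, of the MEL cell line, mouse leukemia cells arrested early in red cell formation. Both came from cells kept in 2% dimethyl sulfoxide (DMSO) for 5 days, a treatment known to drive this line towards red cells, and the fragments were selected at 300 to 350 bases. They are labelled as biological replicates, yet 1 biosample record is cited for the pair, so the spread between them may be technical. Untreated cells were not analysed here. The comparisons are therefore among genes and between the libraries. The gene table of replicate 1 held 65109488 estimated counts and that of replicate 2 held 90856320. The 41 genes took 134498 of the first and 178627 of the second, or 0.207% in replicate 1 and 0.197% in replicate 2.

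A cell copes with damage through several routes. Kinases such as ATM and ATR sense broken or single-stranded DNA and signal to checkpoints. Homologous recombination and end joining mend double-strand breaks, the Fanconi anemia pathway unhooks crosslinked strands, and mismatch, nucleotide excision and base excision repair correct errors or damage on 1 strand. Blood formation is known to depend on these routes: inherited loss of Fanconi anemia genes leads to bone marrow failure. Red cell precursors divide rapidly before they lose their nucleus, and many repair genes are known to be transcribed with the replication machinery, under E2F factors.

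Promoter sequences were searched for this reason. RefSeq promoter windows (GRCm38.p6, 250 bases before to 50 bases from the start site) matched 35 of the 41 genes. The 4 E2F words TTTCCCGC, TTTGGCGC, TTTCGCGC and TTTGCCGC were searched on both strands. At least 1 of them occurred in 8 of the 35 genes, or 22.9%, and in 3.29% of 17492 protein-coding genes with a window. The 8 genes were Bard1, Brca2, Chek2, Fancg, Mdc1, Msh6, Rad51c and Xrcc6. The word of NF-Y, CCAAT, whose occurrences were counted apart and may share bases with an E2F word, occurred on either strand in 22 of the 35, or 62.9%, and in 42.3% of protein-coding genes. All 41 repair genes had counts, whereas the protein-coding genes with a window were not limited to genes with counts. No share was taken among expressed genes, so these gaps cannot be assigned to repair genes as such. A match is a description of letters, not of a bound site.

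The promoters of the 3 genes with an E2F word and the highest mean level are shown from 100 bases before to 25 bases from the start site, 5′ to 3′ on the strand of the gene, with the E2F word in capitals. They belong to Msh6 (chr17:87974950-87975074, plus strand), Xrcc6 (chr15:82016269-82016393, plus strand) and Mdc1 (chr17:35841398-35841522, plus strand).
Msh6: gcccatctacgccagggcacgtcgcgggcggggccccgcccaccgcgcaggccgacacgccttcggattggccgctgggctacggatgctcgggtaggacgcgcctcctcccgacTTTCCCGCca
Xrcc6: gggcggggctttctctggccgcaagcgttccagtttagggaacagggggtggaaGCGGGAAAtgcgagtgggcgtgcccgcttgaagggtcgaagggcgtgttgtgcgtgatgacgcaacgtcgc
Mdc1: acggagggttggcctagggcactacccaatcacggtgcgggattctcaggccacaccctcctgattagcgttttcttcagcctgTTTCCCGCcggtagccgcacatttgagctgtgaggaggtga
Counted from the start site as position 1, with no position 0, the word began at position 16 in Msh6, at -46 in Xrcc6, where it reads on the opposite strand, and at -16 in Mdc1. These genes had no level in common: in TPM, a share of transcripts that corrects for transcript length, Msh6 was the second highest of the 41 genes by the mean of the libraries, Xrcc6 the fifth and Mdc1 further down. Rad51c has 2 windows, each with 1 such word, at position -5 from one start site and 12 from the other, and had the lowest mean level of all 41.

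Nearly all of the repair genes were detected at a low to moderate level. At 1 TPM or more in both libraries there were 37 of the 41, against 8003 protein-coding genes, or 37.3% of the 21474. The exceptions were Fancc, Lig4 and Rad51c, below 1 TPM in both libraries, and Ogg1, with 1.32 TPM in replicate 1 and 0.86 TPM in replicate 2. The median of the 41 was 3.0 TPM in replicate 1 and 2.58 TPM in replicate 2. Protein-coding genes with counts in either library, 16125 in number, had a median TPM of 1.26 in replicate 1 and of 0.99 in replicate 2, and the 8003 at 1 TPM in both had 4.84 TPM in replicate 1 and 3.99 TPM in replicate 2. The repair genes thus lay above the middle of all protein-coding genes with counts and below the middle of those at 1 TPM. Of the 41, 12 averaged above 5 TPM, 26 had means from 1 to 5 TPM, and 3 averaged below 1 TPM. Of the summed TPM, protein-coding genes took 13.5% in replicate 1 and 12.9% in replicate 2, and the rest went to rows of other kinds, so a cutoff of 1 TPM asks for more mRNA here than it would in a poly(A) library. No gene rested on few reads: estimated counts ranged from 132 for Rad51c in replicate 1 to 18359 for Msh6 in replicate 2.

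**Figure D1:**
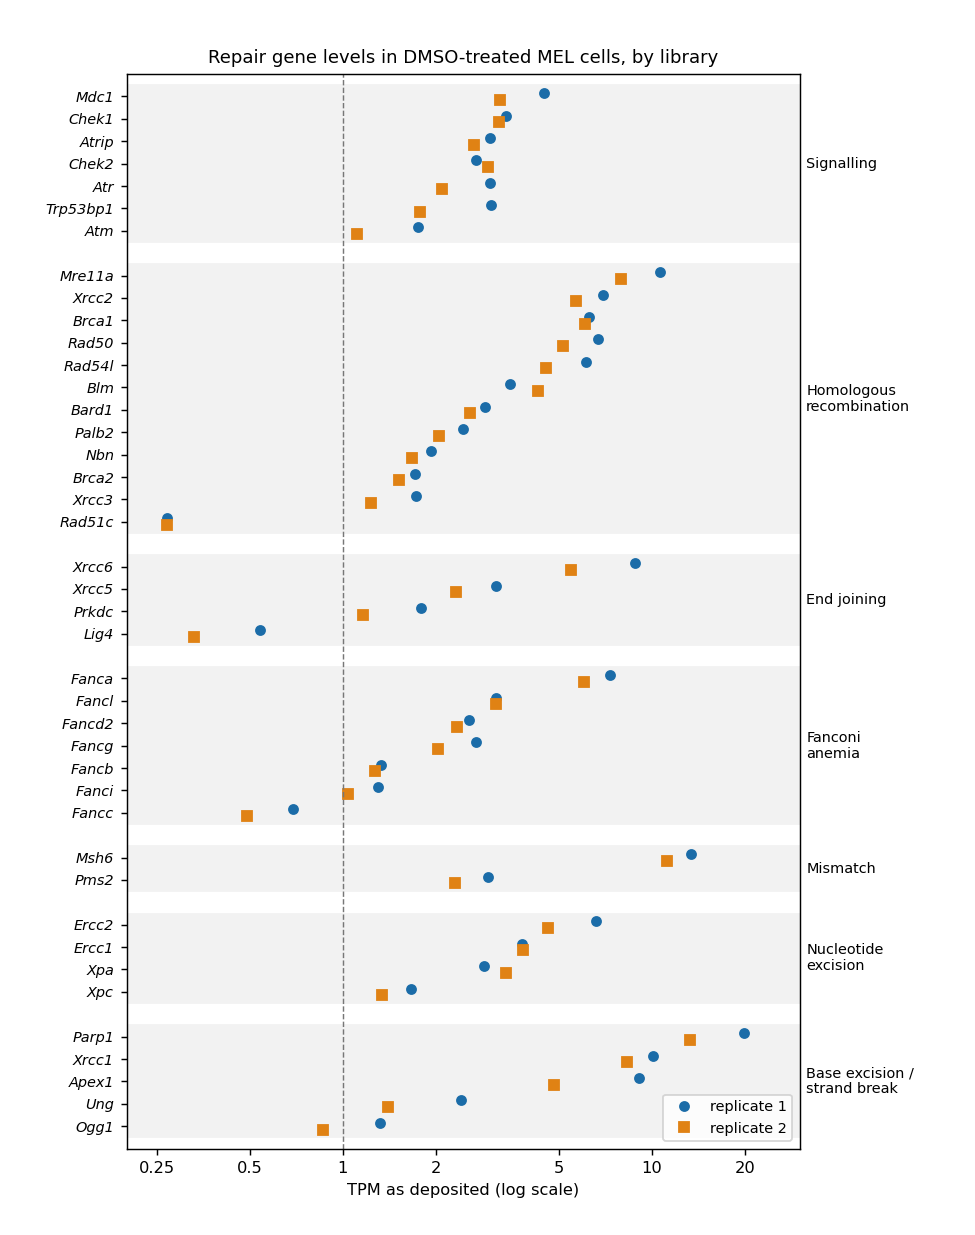
TPM of each of the 41 repair genes on a log axis, replicate 1 as circles drawn above replicate 2 as squares, grouped by pathway and ordered by mean within it, with a dashed line at 1 TPM. Parp1 is the rightmost gene with 19.9 TPM in replicate 1 and 13.3 TPM in replicate 2, Rad51c the leftmost with 0.27 TPM in each library, and 35 of the 41 lie further right in replicate 1.

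The genes that signal damage were all above 1 TPM and close together. Mdc1, which binds the phosphorylated histone H2AX beside a break, was the highest of these 7 genes, with 4.48 TPM in replicate 1 and 3.22 TPM in replicate 2. Chek1, the checkpoint kinase downstream of ATR, had 3.36 TPM in replicate 1 and 3.20 TPM in replicate 2, and Chek2, the kinase downstream of ATM, had 2.69 TPM in replicate 1 and 2.94 TPM in replicate 2. Atr, the kinase recruited to single-stranded DNA, had 3.0 TPM in replicate 1 and 2.09 TPM in replicate 2, and Atrip, which brings ATR there, had 3.0 TPM in replicate 1 and 2.65 TPM in replicate 2. Atm (chromosome 9, 53439149 to 53536740), the kinase of double-strand breaks, was the lowest with 1.75 TPM in replicate 1 and 1.11 TPM in replicate 2. It stood at 0.583 times the TPM of Atr in replicate 1 and 0.531 times in replicate 2, so Atr was the higher kinase in each library. Trp53bp1, whose protein binds chromatin at breaks and favours end joining, had 3.02 TPM in replicate 1 and 1.77 TPM in replicate 2. The checkpoint kinases were close, with Chek1 at 1.25 times Chek2 in replicate 1 and 1.09 times in replicate 2.

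Homologous recombination genes covered the widest range in relative terms, from the third highest of the 41 to the lowest. Of the complex that first binds a broken end, Mre11a (chromosome 9, 14784654 to 14837123), the nuclease, had 10.6 TPM in replicate 1 and 7.93 TPM in replicate 2. Its partner Rad50, an ATPase that tethers the ends, had 6.71 TPM in replicate 1 and 5.16 TPM in replicate 2, and Nbn, the subunit that binds ATM, had 1.93 TPM in replicate 1 and 1.68 TPM in replicate 2. The order Mre11a, Rad50, Nbn was the same in each library, and the ratios were close: Mre11a stood at 1.58 times Rad50 in replicate 1 and 1.54 times in replicate 2, and Nbn at 0.288 times Rad50 in replicate 1 and 0.326 times in replicate 2.

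A similar gradient ran through the BRCA genes. Brca1 (chromosome 11, 101488764 to 101551955), which promotes resection of the ends, had 6.25 TPM in replicate 1 and 6.09 TPM in replicate 2. Bard1, the partner with which BRCA1 forms a ubiquitin ligase, had 2.89 TPM in replicate 1 and 2.58 TPM in replicate 2, and Palb2, which links BRCA1 to BRCA2, had 2.44 TPM in replicate 1 and 2.04 TPM in replicate 2. Brca2, which acts on the resected strand, had 1.71 TPM in replicate 1 and 1.52 TPM in replicate 2. Each partner thus had less RNA than Brca1 in each library: Bard1 stood at 0.462 times its level in replicate 1 and 0.424 times in replicate 2, and Brca2 at 0.274 times in replicate 1 and 0.25 times in replicate 2.

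Xrcc2, Xrcc3 and Rad51c, whose proteins act in shared complexes, differed widely. Xrcc2 had 6.92 TPM in replicate 1 and 5.69 TPM in replicate 2, Xrcc3 had 1.72 TPM in replicate 1 and 1.23 TPM in replicate 2, and Rad51c (chromosome 11, 87376645 to 87404954), whose protein pairs with XRCC3 and also takes part in the complex with XRCC2, had 0.27 TPM in each library, from 132 counts in replicate 1 and 241 in replicate 2. Rad54l, a translocase that aids strand exchange, had 6.12 TPM in replicate 1 and 4.53 TPM in replicate 2. Blm (chromosome 7, 80454733 to 80535119), the helicase lost in Bloom syndrome, was 1 of 5 genes with the higher TPM in replicate 2, with 3.48 TPM in replicate 1 and 4.28 TPM in replicate 2.

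The 4 end joining genes among the 41 spread from high to low, from the Ku subunits to the ligase. Xrcc6 and Xrcc5, the 2 subunits of the Ku ring that caps a broken end, differed in level: Xrcc6 had 8.82 TPM in replicate 1 and 5.48 TPM in replicate 2, and Xrcc5 had 3.13 TPM in replicate 1 and 2.33 TPM in replicate 2. Prkdc, the large kinase that Ku recruits, had 1.79 TPM in replicate 1 and 1.16 TPM in replicate 2. Lig4, the ligase that seals the break, had 0.54 TPM in replicate 1 and 0.33 TPM in replicate 2, below the cutoff in both libraries. Although the Ku subunits act as a pair, Xrcc5 RNA stood at 0.355 times Xrcc6 in replicate 1 and 0.425 times in replicate 2. Prkdc stood at 0.203 times Xrcc6 in replicate 1 and 0.212 times in replicate 2.

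Of the Fanconi anemia genes, Fanca, part of the core ligase complex, stood well above the rest in TPM over all its transcripts. It had 7.34 TPM in replicate 1 and 6.03 TPM in replicate 2. Fancl, the catalytic subunit of that ligase, had 3.12 TPM in replicate 1 and 3.14 TPM in replicate 2, and Fancg, another core subunit, had 2.70 TPM in replicate 1 and 2.03 TPM in replicate 2. Protein-coding transcripts held 43.66% of the TPM of Fanca in replicate 1 and 46.42% in replicate 2. For Fancl they held 98.02% in replicate 1 and 96.96% in replicate 2. The lead of Fanca is thus one of the gene total, and was not tested on protein-coding transcripts alone. Fancb, which lies on chromosome X, had 1.33 TPM in replicate 1 and 1.27 TPM in replicate 2, and Fancc had 0.69 TPM in replicate 1 and 0.49 TPM in replicate 2. The core subunits thus spanned the whole range of the pathway, from Fanca to Fancc. Of the pair that the ligase ubiquitinates, Fancd2 had 2.55 TPM in replicate 1 and 2.34 TPM in replicate 2 and Fanci 1.30 TPM in replicate 1 and 1.04 TPM in replicate 2, a ratio of 1.96 in replicate 1 and 2.25 in replicate 2.

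The highest of the 41 genes, Parp1, and the next, Msh6, belonged to base excision and mismatch repair. In mismatch repair, Msh6 (chromosome 17, 87975062 to 87990892), which recognises a mispaired base, had 13.4 TPM in replicate 1 and 11.2 TPM in replicate 2, while Pms2, the nuclease subunit acting after it, had 2.94 TPM in replicate 1 and 2.31 TPM in replicate 2. In nucleotide excision repair, Ercc2, a helicase of the factor TFIIH that also serves transcription, had 6.61 TPM in replicate 1 and 4.61 TPM in replicate 2. Ercc1, a subunit of a nuclease that cuts beside the lesion, had 3.81 TPM in replicate 1 and 3.82 TPM in replicate 2. These values were almost the same, but by counts scaled for library size Ercc1 was higher in replicate 2. Its log2 ratio of replicate 1 to replicate 2 was -0.21 on that scale. Xpa, which binds the opened lesion, had 2.87 TPM in replicate 1 and 3.37 TPM in replicate 2, and Xpc, which finds distorting lesions, had 1.66 TPM in replicate 1 and 1.34 TPM in replicate 2. Xpa thus stood at 1.73 times Xpc in replicate 1 and 2.52 times in replicate 2, the largest shift between the libraries among the 16 ratios between partners.

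In base excision and single-strand break repair, Parp1 (chromosome 1, 180568924 to 180601254), the sensor that marks strand breaks with poly(ADP-ribose), was the highest of the 41 genes in each library. It had 19.9 TPM in replicate 1 and 13.3 TPM in replicate 2, a mean of 16.6 ± 4.66 TPM (SD, n = 2) that lay at the 93.8 percentile of protein-coding genes with counts. Xrcc1, the scaffold that PARP1 draws to the break, had 10.1 TPM in replicate 1 and 8.33 TPM in replicate 2, or 0.507 times Parp1 in replicate 1 and 0.627 times in replicate 2. Apex1 (chromosome 14, 50924968 to 50927139), the endonuclease that cuts where a base is missing, had 9.07 TPM in replicate 1 and 4.81 TPM in replicate 2, the widest TPM ratio between the libraries. The glycosylases, which remove single damaged bases, were lower: Ung, which removes uracil, had 2.41 TPM in replicate 1 and 1.40 TPM in replicate 2, and Ogg1, which removes oxidised guanine, had 1.32 TPM in replicate 1 and 0.86 TPM in replicate 2.

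Ordered by mean TPM, most neighbours had overlapping ranges when the values of both libraries were pooled. Of the 40 pairs of neighbours, 18 kept their order in both libraries, and in 34 the 2 values of one gene overlapped the range of the other. Pooled ranges can overlap although the order is kept: Parp1 was above Msh6 in each library. The 6 pairs whose ranges did not overlap were Msh6 above Mre11a, Rad54l above Blm, Ercc1 above Chek1, Chek1 above Fancl, Ogg1 above Fancc and Lig4 above Rad51c. The top of the order was Parp1, Msh6, Mre11a, Xrcc1, Xrcc6 and Apex1, and the last 4 were Ogg1, Fancc, Lig4 and Rad51c.

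Another 83 genes of the same pathways, all found in the tables, gave the context. Of these, 68 reached 1 TPM in both libraries, and their median was 3.66 TPM in replicate 1 and 2.47 TPM in replicate 2, against 3.0 TPM in replicate 1 and 2.58 TPM in replicate 2 for the 41. In each pathway the highest and the lowest are named. H2afx, the histone phosphorylated at breaks, led the signalling genes with 172 TPM in replicate 1 and 193 TPM in replicate 2, and Wee1, a checkpoint kinase, was the lowest with 1.83 TPM in replicate 1 and 1.53 TPM in replicate 2. Among recombination genes Rpa1, which coats single-stranded DNA, led with 35.1 TPM in replicate 1 and 23.0 TPM in replicate 2, and Rad51b was the lowest with 1.06 TPM in replicate 1 and 0.74 TPM in replicate 2. Rad51b was the only other recombination gene on the list that did not reach 1 TPM in both libraries.

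End joining stayed low outside the 41 genes as well: its highest other gene, the polymerase gene Polq, had 2.84 TPM in replicate 1 and 2.25 TPM in replicate 2, and Nhej1, a partner of the ligase complex, had 0.17 TPM in replicate 1 and 0.14 TPM in replicate 2. Fance, a core subunit, led the other Fanconi anemia genes with 8.86 TPM in replicate 1 and 6.57 TPM in replicate 2, and the nuclease gene Fan1 was the lowest with 0.45 TPM in replicate 1 and 0.32 TPM in replicate 2. Pcna, the sliding clamp of replication that also serves mismatch repair, had 61.9 TPM in replicate 1 and 54.8 TPM in replicate 2, and Mlh3 had 0.74 TPM in replicate 1 and 0.62 TPM in replicate 2. H2afx, Rpa1 and Pcna were thus among the other genes with a higher mean TPM than any of the 41 genes.

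Ddb1, which binds ultraviolet damage as part of a ligase, led nucleotide excision repair with 42.2 TPM in replicate 1 and 35.0 TPM in replicate 2, and Ercc6, which acts at stalled RNA polymerase, had 1.46 TPM in replicate 1 and 1.14 TPM in replicate 2. In base excision repair Fen1, the flap nuclease, led with 19.4 TPM in replicate 1 and 18.5 TPM in replicate 2, and the glycosylase gene Neil2 had 0 counts in both libraries. Of the genes for translesion synthesis and direct reversal, the polymerase gene Polh led with 5.54 TPM in replicate 1 and 5.21 TPM in replicate 2, and Alkbh3, a demethylase of DNA and RNA bases, had 0 counts in both. The limit that 0 counts set was 3 counts, or 0.0461 CPM for replicate 1 and 0.0330 CPM for replicate 2, for counting error only.

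**Figure D2:**
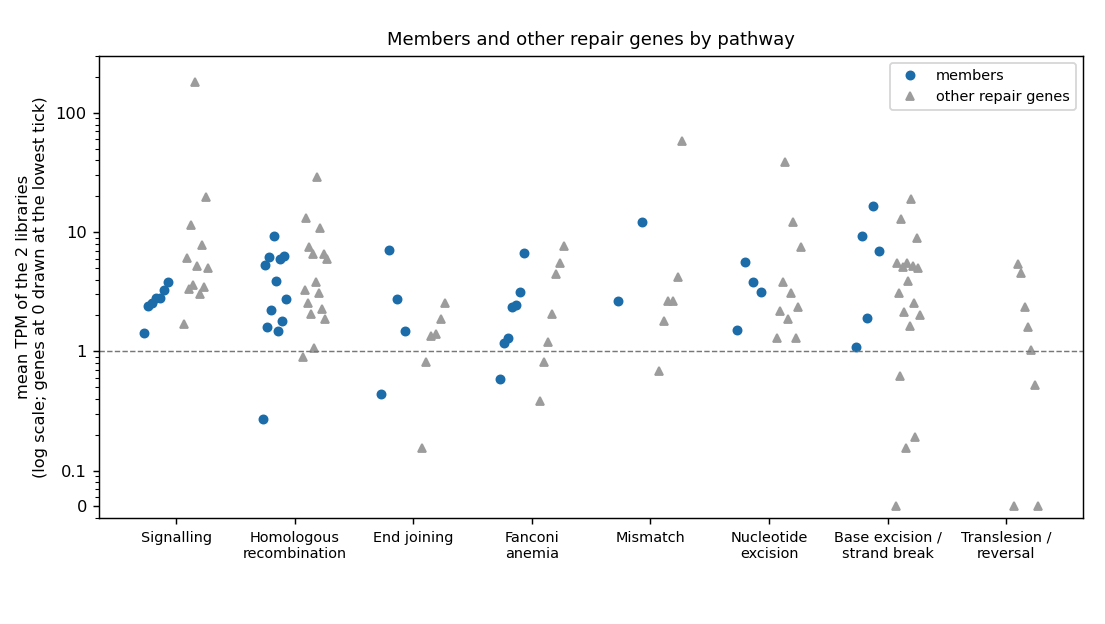
Mean TPM of the 2 libraries on a log axis for each of the 41 repair genes (circles, left) and the 83 other genes of the same pathways (triangles, right), with a dashed line at 1 TPM and genes at 0 drawn at the lowest tick. H2afx (182 TPM), Pcna (58.4 TPM) and Ddb1 (38.6 TPM) are among the triangles above every circle, the highest of which is Parp1 at 16.6 TPM.

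The transcript tables show which annotated transcripts made up these levels. Of the 41 genes, 35 had several transcripts and 6 had 1 each, namely Bard1, Brca2, Chek2, Msh6, Xrcc1 and Xrcc5. Among the 31 with several transcripts and 1 TPM or more in both libraries, 30 had the same leading transcript in each, against 92.9% of 6058 such protein-coding genes. The exception was Ercc2 (chromosome 7, 19382010 to 19395694), in which 2 protein-coding transcripts were nearly level: Ercc2-203 held 40.2% of the gene's TPM in replicate 1 and 34.0% in replicate 2, and Ercc2-201 held 32.7% in replicate 1 and 38.4% in replicate 2. Protein-coding transcripts made up a median of 84.1% of each gene's TPM in replicate 1 and 86.3% in replicate 2 over the 31 genes, beside 86.3% in replicate 1 and 88.8% in replicate 2 over the 6058.

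In several genes the larger part of the TPM was assigned to transcripts not annotated as protein-coding. Ercc1 (chromosome 7, 19344778 to 19356524) was led by Ercc1-202, a retained intron transcript of 1179 nt, with 35.1% of the gene's TPM in replicate 1 and 39.4% in replicate 2. A second transcript, Ercc1-210, annotated for nonsense-mediated decay (the pathway that degrades mRNA with an early stop codon), held 31.6% in replicate 1 and 35.8% in replicate 2. Protein-coding transcripts of Ercc1 made up 19.5% in replicate 1 and 10.6% in replicate 2, so most of its 3.81 TPM in replicate 1 and 3.82 TPM in replicate 2 was not assigned to protein-coding transcripts.

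Ogg1 was led by the retained intron transcript Ogg1-202, with 45.2% of its TPM in replicate 1 and 51.5% in replicate 2. Rad51c was led by Rad51c-204, annotated for decay, with 41.4% in replicate 1 and 82.9% in replicate 2, from 51.3 counts in replicate 1 and 170.9 in replicate 2. By share of TPM, that makes 3 of the 35 genes led by such a transcript in both libraries. By share of counts there were also 3, namely Ercc1, Atrip and Rad54l, while Ogg1 was led by the protein-coding Ogg1-201 in both libraries and Rad51c by the protein-coding Rad51c-202 in replicate 1. Among the 31 above 1 TPM, Ercc1 alone was, which is 3.23%, while such transcripts led 8.35% of the 6058 protein-coding genes in replicate 1 and 7.41% in replicate 2.

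In 7 of the 35 genes protein-coding transcripts held under 50% of the TPM in both libraries: Ercc1, Ogg1, Rad51c, Pms2, Trp53bp1, Atrip and Fanca. Of the 31 genes above 1 TPM this held for 6 in replicate 1 and 5 in replicate 2, beside 758 of the 6058 in replicate 1 and 666 in replicate 2. For Pms2 the protein-coding share of TPM was 27.1% in replicate 1 and 35.7% in replicate 2. For Trp53bp1 it was 30.6% in replicate 1 and 26.7% in replicate 2. By share of counts it was 41.55% in replicate 1 and 54.85% in replicate 2 for Pms2. For Trp53bp1 the share of counts was 65.7% in replicate 1 and 62.9% in replicate 2. At the other end, 6 of the 35 genes had 100% protein-coding TPM to 1 decimal place in each library, namely Apex1, Blm, Fancb, Lig4, Mdc1 and Nbn. Short transcripts weigh more in TPM than in counts: Fanca-201, a protein-coding transcript of 4485 nt, held 42.7% of the TPM of Fanca in replicate 1 and 82.5% of its counts. By counts, protein-coding transcripts made up a median of 93.7% in replicate 1 and 95.7% in replicate 2 over the 31 genes, and 3 genes in replicate 1 and 2 in replicate 2 were under 50%. This stood beside medians of 94.4% in replicate 1 and 95.5% in replicate 2 over the 6058, of which 348 in replicate 1 and 313 in replicate 2 were under 50%.

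**Figure D3:**
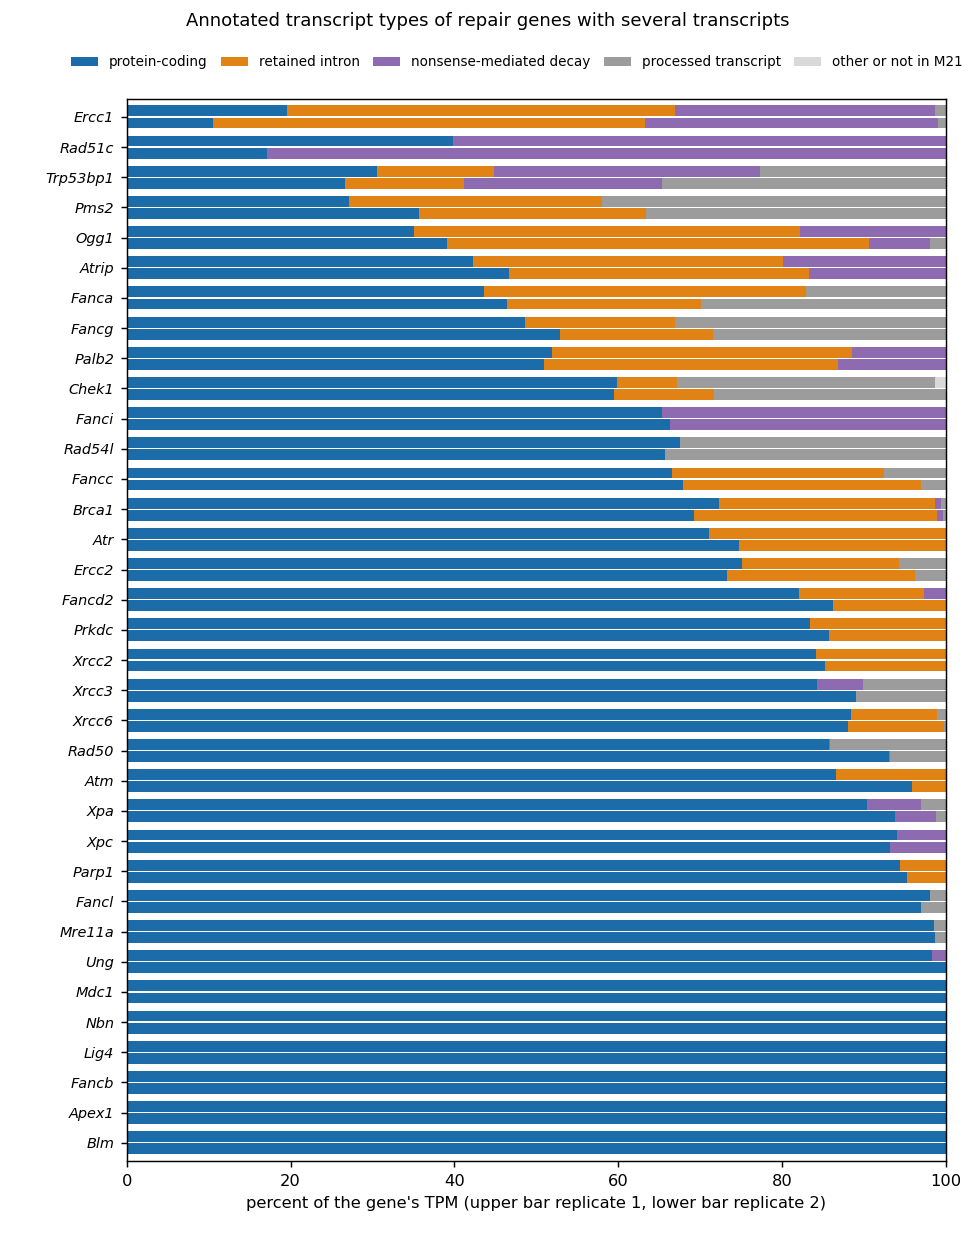
Percent of each gene's TPM by annotated transcript type for the 35 repair genes with several transcripts, the upper bar for replicate 1 and the lower for replicate 2, sorted by protein-coding share. Ercc1 at the top has a protein-coding share of 19.5% in replicate 1 and 10.6% in replicate 2, and the 6 genes at the bottom have 100% in each library.

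The assignment of reads was not equally sure for all genes. The posterior SD of the count in the authors' tables was 0 in both libraries for 37 of the 41 genes. It was 12.5 counts in replicate 1 and 13.3 in replicate 2 for Atrip, which shares 1147 nt of exon on the same strand with Trex1, an exonuclease gene. How many reads of Trex1 were assigned to Atrip was not measured. Pms2, which shares exon on the same strand with Gm42421 and Rsph10b, had 0.46 counts in replicate 1 and 0.32 in replicate 2. For 19 genes the annotation has exons of another gene on the opposite strand, and whether the counting used strand is not stated. The overlap was largest relative to the gene for Apex1, with 877 of 1422 exonic nt under Pip4p1. Reads of the pair cannot be told apart if strand was not used. The posterior SD was 0 in both libraries for Apex1, and also for Trp53bp1 and Rad54l, which overlap Tubgcp4 and Lrrc41 on the opposite strand. What these values say of the strand setting was not tested.

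The libraries were then compared gene by gene, as 2 libraries of 1 condition. The 15272 genes that reached 10 counts in either library were each tested by an exact two-sided binomial test on counts scaled by TMM, with Benjamini-Hochberg adjustment over all of them, and called at an adjusted p under 0.05 and a 2-fold difference. None of the 41 genes was called in either direction, against 4.07% of all tested genes called higher in replicate 1 and 2.43% called higher in replicate 2. Calls were rarer among the 8003 protein-coding genes at 1 TPM in both libraries, with 0.562% higher in replicate 1 and 0.625% higher in replicate 2, so 0 of 41 is close to that background. At the adjusted p alone, 16 of the 41 were higher in replicate 1 and 13 in replicate 2, and the other 12 did not pass. Over all tested genes these shares were 30.5% higher in replicate 1 and 31.5% higher in replicate 2. Of the 8003 protein-coding genes at 1 TPM in both libraries, 2652 were higher in replicate 1 and 3594 in replicate 2. At an unadjusted p under 0.05, 29 of the 41 passed, beside 64.6% of all tested genes and 6390 of the 8003. Scaling by DESeq2 size factors or by total counts also gave 0 calls at 2-fold. The test compares the reads of these libraries and covers counting error only.

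The differences were small. The median log2 ratio of replicate 1 to replicate 2 was 0.02 over the 41 genes, beside 0.004 over all tested genes, and the median of its size without sign was 0.19, beside 0.28 over all tested genes, 0.20 over the 8003 and 0.21 over the other repair genes. Apex1 differed most, with 2065 counts in replicate 1 and 1821 in replicate 2 from the deeper library, a log2 ratio of 0.63 (95% exact interval 0.54 to 0.72, adjusted p = 3.276e-41 by the binomial test), or 1.55-fold. It was the only one past 1.5-fold. In the other direction Blm had 3755 counts in replicate 1 and 7655 in replicate 2, a log2 ratio of -0.58 (-0.63 to -0.52, adjusted p = 4.117e-92). Parp1, with 15455 counts in replicate 1 and 17010 in replicate 2, had a log2 ratio of 0.31 (0.28 to 0.34).

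By pathway, the counts at the adjusted p were as follows. Of the 8003 protein-coding genes at 1 TPM in both libraries, 2652 passed as higher in replicate 1 and 3594 in replicate 2. All 4 end joining genes passed as higher in replicate 1, with log2 ratios from 0.15 for Xrcc5 to 0.42 for Lig4 and Xrcc6. Of the 5 base excision genes 4 did, with Xrcc1 at -0.004 as the exception, and the glycosylase genes Ung and Ogg1 at 0.42 and 0.41. Of the 7 Fanconi anemia genes 3 passed as higher in replicate 2, Fancl at -0.43, Fancd2 at -0.21 and Fancb at -0.20, and 0 passed in the other direction, where the shares over all tested genes were 31.5% higher in replicate 2 and 30.5% higher in replicate 1. The remaining pathways were mixed: 3 signalling genes were higher in replicate 1 (Trp53bp1 at 0.45, Atr at 0.21, Atm at 0.14) and 3 in replicate 2 (Chek2 at -0.40, Chek1 at -0.24, Atrip at -0.11). Of 12 recombination genes 4 were higher in replicate 1 and 5 in replicate 2, among them Brca1 at -0.19. In nucleotide excision repair Ercc2 was higher in replicate 1 at 0.24, and Xpa and Ercc1 in replicate 2 at -0.52 and -0.21, while neither mismatch repair gene passed. The other genes of these pathways had other counts: 2 other end joining genes were higher in replicate 1 and 1 in replicate 2, 4 other base excision genes were higher in replicate 1 and 8 in replicate 2, and 4 other Fanconi anemia genes were higher in replicate 1 and 2 in replicate 2. Differences between pathways were not tested.

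The direction of many differences depended on the scale. With TMM, DESeq2 size factors and total counts, 37 of the 41 genes kept the same sign, and Msh6, Rad50, Xrcc1 and Xrcc2 did not. By TPM, 35 of the 41 were higher in replicate 1, 5 were higher in replicate 2 and Rad51c was level. Of the genes higher in replicate 2 by TMM-scaled counts, 13 were higher in replicate 1 by TPM, and 7 of these had passed the adjusted p: Atrip, Bard1, Brca1, Brca2, Chek1, Fancb and Fancd2. The TPM scale moved all tested genes too: the median log2 ratio of TPM with 1 added was 0.10 over them and 0.24 over the 41. It was 0.20 over the 8003 protein-coding genes at 1 TPM in both libraries and 0.23 over the other repair genes. Of the 83 other repair genes 80 were tested and 0 were called at 2-fold, and at the adjusted p alone 25 were higher in replicate 1 and 30 in replicate 2.

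**Figure D4:**
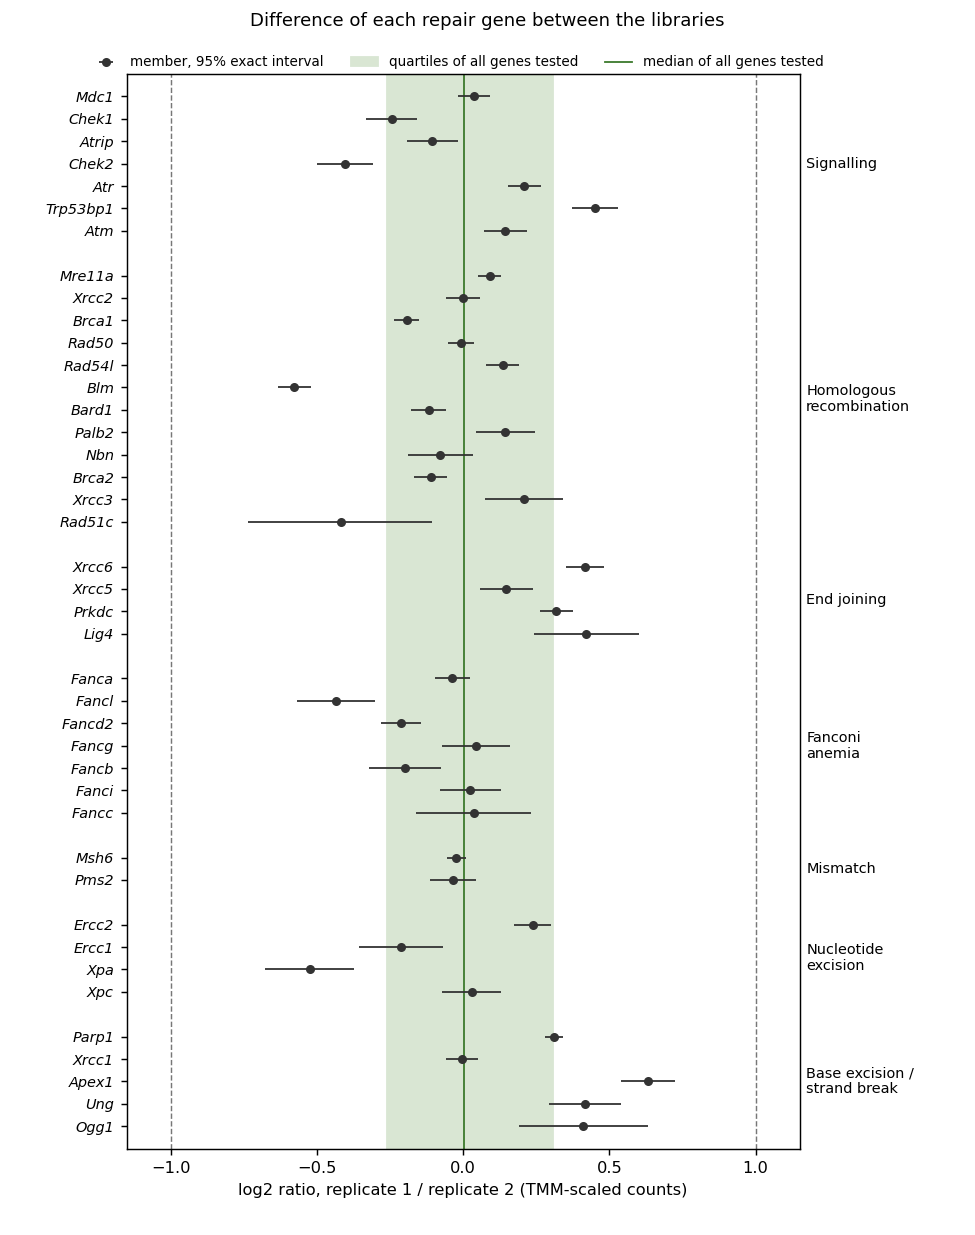
Log2 ratio of replicate 1 to replicate 2 from TMM-scaled counts for each of the 41 repair genes with its 95% exact interval, beside the median (line) and quartiles (band) of all 15272 tested genes, with dashed lines at 2-fold. Every gene lies inside the dashed lines, from -0.58 for Blm to 0.63 for Apex1, and the 4 end joining genes lie to the right of 0.

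Markers of the cells moved with the libraries. All 7 erythroid markers were above 1 TPM and passed as higher in replicate 2, 3 of them at 2-fold, and the adult globins summed to 6359 TPM in replicate 1 and 13364 TPM in replicate 2. All 5 markers of cycling cells were above 1 TPM. At the adjusted p alone 1 of them was higher in replicate 1 and 4 in replicate 2, and their summed TPM was 219 in replicate 1 and 231 in replicate 2. Ribosomal RNA genes of the annotated rRNA types took 0.394% of the counts in replicate 1 and 0.215% in replicate 2. The part of these differences in the ratios of the repair genes was not tested, and fewer cells of a type and less RNA per cell cannot be told apart in bulk RNA. Of the markers of other cells, 0 of 6 of granulocytes and macrophages, 0 of 5 lymphoid, 0 of 4 mast cell and 1 of 5 stromal and epithelial markers (Vim) reached 1 TPM in both libraries. Of 5 megakaryocyte markers 2 did: Pf4 with 34.1 TPM in replicate 1 and 24.7 TPM in replicate 2, and Itga2b with 11.1 TPM in replicate 1 and 19.1 TPM in replicate 2, which was called higher in replicate 2 with a log2 ratio of -1.12.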

How the data were processed

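Total RNA-seq of 2 libraries of 1 group was used. The authors used mm10 with GENCODE M4, per the readme deposited with the tables. Neither aligner nor quantification program nor strand setting is given in the sources used here. The authors' gene tables give, per the file headers, an estimated count, TPM, FPKM, a posterior SD of the count and TPM interval bounds, the last 2 treated as a score of the authors with no stated level, and the transcript tables give the percent of the gene's TPM held by each transcript. TPM as deposited is shared out over all rows, short RNAs included. Names, transcript types and coordinates (1-based) came from GENCODE M21, which matched 42462 of 43346 Ensembl rows and missed 884, which stayed in the test; 26248 numbered tRNA rows (0.000115% and 0.000181% of counts) and 97 spike-in rows (0 counts) were not tested. A chi-square statistic of 386 per degree of freedom over tested genes set the libraries apart.

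Estimated counts were rounded and scaled with TMM (edgeR 4.0.16, R 4.3.3) for the binomial test in Python 3.11.15 with scipy 1.17.1, since edgeR's own quasi-likelihood test has no residual degrees of freedom with 1 library on each side. Log2 ratios had 0.5 added to the counts. Intervals are exact (Clopper-Pearson) and, like the floor of 3 counts, cover counting error only, as no molecular identifiers are described. The test was checked on simulated data that held counting error only, so the check does not cover other spread between libraries. Alternatives used DESeq2 1.42.0 size factors, total counts, FPKM, posterior means, rescaled TPM, other cutoffs and each library alone. Named genes were all 41, and the highest and lowest of each group of other repair genes; proteins were not analysed here. Transcript types, exon overlaps and the genes named for them were chosen after the values were seen. The 41 genes and all lists were chosen with earlier results of these data known.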

Additional observations from a re-analysis of the deposited data

How the results depend on the processing

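The count of repair genes at 1 TPM or more in both libraries, 37, was 38 at a cutoff of 0.5 TPM, 27 at 2 TPM, 41 by FPKM or by TPM rescaled to nuclear protein-coding genes, and 37 to 38 with a library left out. Their median of 2.74 TPM was 11.0 on the FPKM scale and 21.1 on the rescaled TPM scale, and 2.58 to 3.0 with a library left out. Of the 41 genes 0 differed at 2-fold, 1 at 1.5-fold and 29 with no fold minimum. Other scalings, posterior mean counts and other count minimums also gave 0. The median log2 ratio of 0.02 was 0.24 by TPM with 1 added, and -0.006 with no filter on low counts, so its sign is not settled. The same leading transcript was found in 29 of 31 genes by posterior mean TPM, against 30 of 31. No paired analysis was possible because both libraries belong to 1 group. Depth limits the precision most for Rad51c, whose interval of the log2 ratio ran from -0.74 to -0.11.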

Other observations

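Targets of p53, the factor that damage signalling activates, were measured beside the repair genes. Of these targets 4 of 5 reached 1 TPM in both libraries, beside 37.3% of protein-coding genes. Whether p53 was active in these cells was not tested. Bax, which promotes cell death, had 12.7 TPM in replicate 1 and 9.84 TPM in replicate 2, Mdm2, the ligase that degrades p53, had 6.55 TPM in replicate 1 and 6.28 TPM in replicate 2, and Ccng1 had 5.42 TPM in replicate 1 and 4.35 TPM in replicate 2. Bbc3, another promoter of cell death, had 2.33 TPM in replicate 1 and 2.59 TPM in replicate 2. Cdkn1a, the inhibitor that halts the cycle at G1, was the lowest with 0.55 TPM in replicate 1 and 0.52 TPM in replicate 2, from 210 counts in replicate 1 and 357 in replicate 2. Mki67 and Top2a, genes of dividing cells, were higher than any of the 41: Mki67 had 29.95 TPM in replicate 1 and 35.7 TPM in replicate 2 and Top2a 79.9 TPM in replicate 1 and 97.6 TPM in replicate 2.

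The 41 genes lie on 16 chromosomes, with 6 on chromosome 7 (Blm, Ercc1, Ercc2, Fanci, Palb2 and Xrcc1) and 5 each on chromosomes 5 and 9. The genes Mgmt, Alkbh3 and Neil2, of direct reversal and base excision repair, were the only ones of the 83 other repair genes not tested, each with 0 counts in both libraries; Mgmt was chosen for mention after its value was seen.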
